A study of Mus musculus with 12 samples.

Results

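The transcripts of 9 mouse genes that write, maintain or remove DNA methylation were followed in fibroblasts treated with an inhibitor of polyamine synthesis. The genes, selected by symbol, were Dnmt1, Uhrf1, Hells and Uhrf2 (maintenance), Dnmt3a and Dnmt3b (de novo methylation), and Tet1, Tet2 and Tet3 (oxidation of 5-methylcytosine). All 9 were found among 19938 genes, each taken from its transcript cluster (the array's set of probes for 1 transcript unit) with the highest mean over all arrays. The cells were NIH3T3, an established line of mouse fibroblasts, and RNA came from their sorted G1 fraction. Groups were untreated cells at 0 h (n = 3 arrays) and cells held in 1 mM difluoromethylornithine (DFMO), an inhibitor of ornithine decarboxylase, for 12 h (n = 2), 24 h (n = 3), 48 h (n = 2) and 96 h (n = 2). All groups shared the line and the G1 gate, and the drug was the only agent named. The untreated cells belong to 0 h, so time in culture and exposure cannot be told apart in any comparison.

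Cytosines in CpG pairs carry methyl groups that must be copied at each replication. UHRF1 binds the hemimethylated DNA behind the fork and recruits DNMT1, which methylates the new strand, while HELLS remodels nucleosomes so that DNMT1 can reach the DNA. UHRF2 is the paralogue of UHRF1 and does not replace it in maintenance. DNMT3A and DNMT3B methylate unmodified CpGs. TET enzymes oxidise 5-methylcytosine, and methylation is then lost by base excision repair or by dilution over divisions. Maintenance genes are known to be transcribed mainly in late G1 and S phase.

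Of 12 marker genes of fibroblasts all were measured, and their summed linear level lay between 17282 and 18659 on the 96 h arrays, against 19648 to 20565 on the untreated arrays. At 96 h, 7 of these markers fell, Thy1 furthest (log2 change -2.35), and Fn1 rose (0.71). Of 11 leukocyte markers, whose median mean level in untreated cells was 3.75 log2 units, Lyz2 alone was called at 96 h (1.90), and their summed level was 199 to 223 at 96 h, against 155 to 162 untreated. The summed level of 12 epithelial and endothelial markers was 248 to 295 at 96 h, against 509 to 705 untreated, with Krt14 lower and Cdh1 and Tek higher. Whether these shifts bear on the values below was not tested. Within groups, Pearson's r between arrays was 0.994 to 0.998. The third untreated array, the second 12 h array and the third 24 h array deviated from their group means together (r = 0.581 between the untreated and the 24 h array and 0.318 between the untreated and the 12 h array).

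Promoter sequence is shown first for genes that fell together, beside a paralogue for which no change was called. RefSeq windows from 250 bases before to 50 after an annotated start (build GRCm38.p6) were matched by symbol for all 9 genes. They place Dnmt1 on chromosome 9, Uhrf1 on 17, Hells and Uhrf2 on 19, Dnmt3a on 12, Dnmt3b on 2, Tet1 on 10, Tet2 on 3 and Tet3 on 6. Below are the 250 bases before the start of Uhrf1 (its second annotated start, chr17:56304063-56304312, plus strand), Hells (chr19:38930740-38930989, plus strand) and Uhrf2 (chr19:30030263-30030512, plus strand). Capitals mark E2F-type words (TTTCCCGC, TTTCGCGC, TTTGCCGC or TTTGGCGC) and CCAAT, the word bound by NF-Y, each on either strand. The Uhrf2 stretch holds none of these exact words, but its gttggcgc differs from TTTGGCGC at the first base only. Inexact matches were not searched for.
Uhrf1 start 2: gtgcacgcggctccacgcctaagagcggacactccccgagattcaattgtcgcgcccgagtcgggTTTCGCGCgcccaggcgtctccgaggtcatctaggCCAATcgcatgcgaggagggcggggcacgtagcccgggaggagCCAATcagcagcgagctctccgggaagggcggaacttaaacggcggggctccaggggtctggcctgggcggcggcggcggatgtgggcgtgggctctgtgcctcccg
Hells: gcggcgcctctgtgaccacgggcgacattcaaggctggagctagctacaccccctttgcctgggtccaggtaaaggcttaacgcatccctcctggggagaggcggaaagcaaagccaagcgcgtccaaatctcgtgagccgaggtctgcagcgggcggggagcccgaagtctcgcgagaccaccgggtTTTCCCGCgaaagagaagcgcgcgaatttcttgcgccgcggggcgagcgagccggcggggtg
Uhrf2: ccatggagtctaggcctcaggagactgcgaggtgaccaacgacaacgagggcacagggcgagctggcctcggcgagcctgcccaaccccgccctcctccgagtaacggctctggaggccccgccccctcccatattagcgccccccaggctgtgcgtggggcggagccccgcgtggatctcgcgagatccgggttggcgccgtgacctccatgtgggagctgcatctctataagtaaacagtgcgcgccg

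E2F factors are known to regulate genes of the G1 to S transition. Counted from the annotated start, an E2F-type word began at -185 at the second Uhrf1 start and at -62 at Hells. The third annotated Dnmt1 start had 2 such words, at -219 and at 34. The upstream Dnmt1 word is read on the other strand, as GCGCGAAA, and is shown with its flanks (chr9:20952824-20952853, minus strand).
Dnmt1 start 3: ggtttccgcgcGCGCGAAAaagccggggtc

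The words occurred in 3 of the 4 genes that were lower at 96 h (not in Dnmt3a) and in 0 of the other 5. Over all RefSeq windows of this length they occurred in 2.26% (744 of 32851), and counted by gene in 2.60% (704 of 27025). Of 28 S phase genes with a window, 11 held one (39.3%). CCAAT was in 37.4% of windows and the CHR word (TTTGAA) in 17.9%, or 41.1% and 20.2% counted by gene. Among the 9 genes, CCAAT was found at Dnmt1, Uhrf1 and Tet3, and not at Hells or Dnmt3a. CHR was found at Dnmt1 and Dnmt3b. Neither Tet3 nor Dnmt3b was called at any time. No E2F-type word overlapped a CCAAT or CHR word in the windows of the 9 genes. CpG counts per 300 bases were 33 at the second Uhrf1 start, 34 at Hells, 33 at the third Dnmt1 start, 28 at Uhrf2 and 57 at Tet2, against a median of 7 over all windows (quartiles 3 and 20). The first Uhrf1 start had 12, and the first and second Dnmt1 starts 2 and 12. Counts were 46, 47 and 18 at the Dnmt3a starts, 30 at Dnmt3b, 17 at Tet1 and 22 at Tet3. These matches describe the letters only. Which start is used in NIH3T3 cells was not measured.

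**Figure D1:**
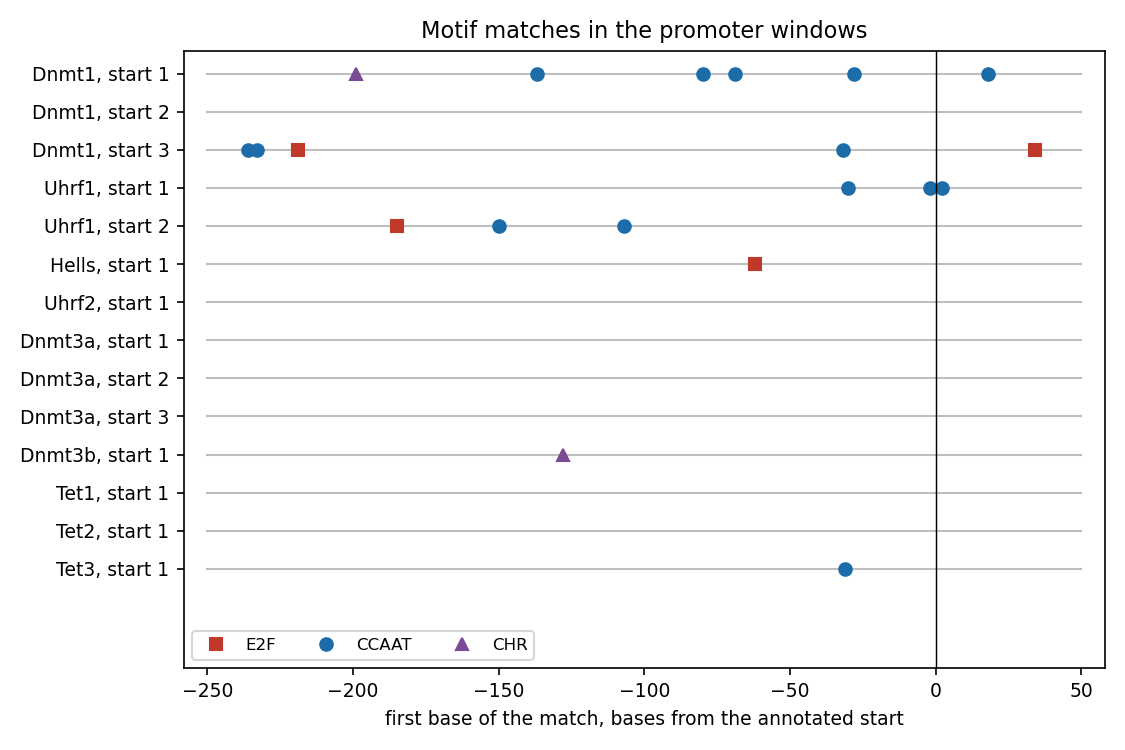
Matches to E2F-type words (squares), CCAAT (circles) and CHR (triangles) on either strand, by distance in bases from each annotated start of the 9 genes, 1 line per start. E2F-type words appear only at Uhrf1 start 2, Hells and Dnmt1 start 3, among the 14 windows shown.

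The first comparison asked when the 9 genes change after DFMO is added. None was called in the first day. Dnmt1, Uhrf1 and Hells were lower by 48 h. At 96 h those 3 were far lower, Dnmt3a was lower by a smaller step, and Tet2 was higher. A gene was called when limma's moderated test, fitted over all 19938 genes, gave an adjusted p under 0.05. At 12 h the log2 changes of the 9 genes lay between -0.14 and 0.11 and the smallest limma adjusted p was 0.989, and at 24 h they lay between -0.07 and 0.03 with a smallest adjusted p of 0.893. At both times 0 of the 9 had an unadjusted p under 0.05, and 0.0% of all genes were called (741 genes had an unadjusted p under 0.05 at 12 h and 1579 at 24 h). At 48 h, 3 of 9 were lower and 0 higher, where 5.82% of all genes were called (3.17% lower, 2.65% higher). At 96 h, 4 of 9 were lower and 1 higher, where 21.9% of all genes were called (10.1% lower, 11.8% higher). The median change of the 9 genes was -0.09 at 48 h and -0.21 at 96 h, beside -0.02 and 0.00 for all genes. In limma's F test over the 4 times, 5 of 9 were called (the same 5 as at 96 h), where 17.0% of all genes were. All these comparisons share the 3 untreated arrays.

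**Figure D2:**
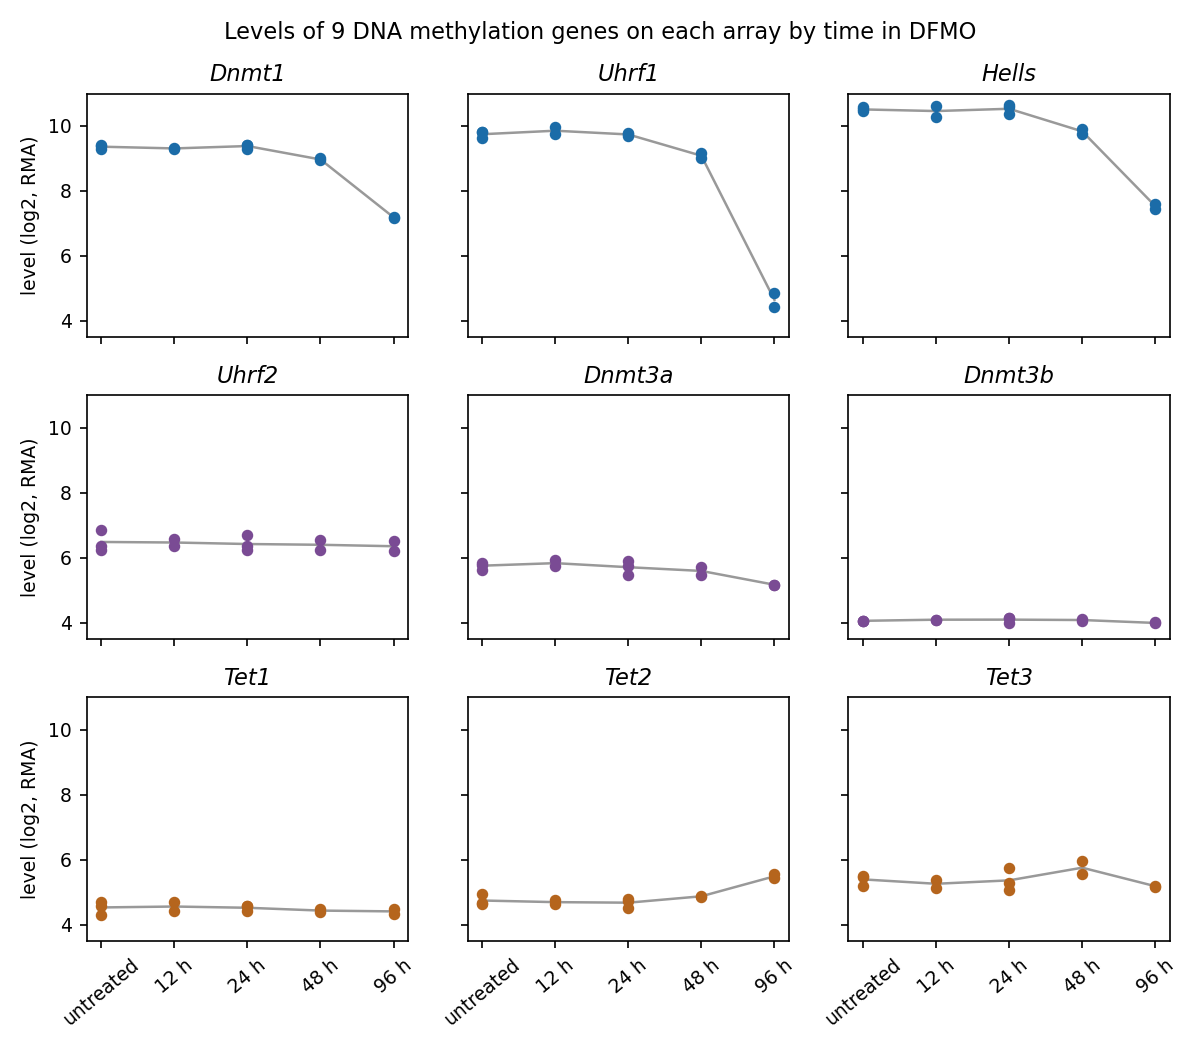
Deposited log2 levels of the 9 genes on each of the 12 arrays (points) and group means (lines), by hours in 1 mM DFMO, with untreated cells at the left. Uhrf1, Hells and Dnmt1 step down at 48 h and again at 96 h, and Tet2 is highest at 96 h, while levels of different genes come from different probes and are not compared.

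Uhrf1, the reader of hemimethylated DNA, showed the largest change of the 9. Its log2 level was 9.62, 9.81 and 9.81 on the untreated arrays, 9.75 and 9.96 at 12 h, 9.68, 9.79 and 9.75 after 24 h, 9.16 and 9.01 at 48 h, and 4.86 and 4.44 at 96 h. Both 48 h arrays lay below every earlier array, and both 96 h arrays lay more than 4 log2 units below those of 48 h. The change was -0.66 ± 0.12 (SE) at 48 h, to 63.2% of the untreated level (limma adjusted p = 0.0151), and -5.10 ± 0.12 at 96 h, to 2.92% of it (34.2-fold, limma adjusted p = 2.36e-08). Among 19938 genes only 1 fell further at 96 h. The 96 h level of 4.65 ± 0.30 (SD, n = 2) stood near the 3.75 of the leukocyte markers, and near such a floor folds are understated. In bulk RNA, fewer expressing cells and less RNA per cell cannot be told apart, here and for every gene below.

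Hells, the nucleosome remodeller, measured 10.45, 10.51 and 10.57 untreated, 10.29 and 10.63 at 12 h, 10.58, 10.64 and 10.37 after 24 h, 9.92 and 9.75 at 48 h, and 7.46 and 7.61 at 96 h (log2 level). The 48 h and 96 h arrays did not overlap with each other or with any earlier group. Its change was -0.68 ± 0.11 at 48 h (limma adjusted p = 0.0102) and -2.98 ± 0.11 at 96 h, to 12.7% of the untreated level (7.87-fold, limma adjusted p = 1.75e-07). It ranked 72nd from the deepest fall among all genes.

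Dnmt1, the maintenance methyltransferase itself, measured 9.30, 9.39 and 9.40 untreated, 9.29 and 9.33 at 12 h, 9.43, 9.43 and 9.29 after 24 h, 8.94 and 9.00 at 48 h, and 7.18 and 7.20 at 96 h (log2 level). As for Uhrf1 and Hells, both 48 h arrays lay below all earlier arrays and both 96 h arrays below those of 48 h. The change was -0.39 ± 0.06 at 48 h (limma adjusted p = 0.0058) and -2.18 ± 0.06 at 96 h, to 22.1% of the untreated level (4.52-fold, limma adjusted p = 2.70e-08). It ranked 158th from the deepest fall.

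Most of the loss came in the last interval. The change at 48 h was 13.0% of that at 96 h for Uhrf1, 22.7% for Hells and 18.1% for Dnmt1, on the log2 scale. From 24 to 48 h the steps were -0.65 ± 0.12 (Uhrf1, adjusted p = 0.0335), -0.69 ± 0.11 (Hells, 0.0190) and -0.41 ± 0.06 (Dnmt1, 0.0105) in limma, in a comparison that called 1.67% of all genes (1.14% lower, 0.527% higher). From 48 to 96 h they were -4.43 ± 0.14, -2.30 ± 0.12 and -1.78 ± 0.06 in the same order, with limma adjusted p of 3.42e-07, 5.48e-06 and 5.75e-07, where 8.64% of all genes were called and 4.29% were lower. The calls for the step from 24 to 48 h depended on single arrays and on the fit. They were lost without either 48 h array, which left 1 array at 48 h. The steps were then -0.72 (Uhrf1), -0.78 (Hells) and -0.38 (Dnmt1) without the first, and -0.58, -0.61 and -0.44 without the second. With only the 24 h and 48 h groups in the fit they were lost too (limma adjusted p = 0.0561, 0.0859 and 0.103). Calls over all genes then dropped to 61, from 333. Uhrf1 also lost its call whichever 24 h array was left out (limma adjusted p = 0.0653, 0.0949 and 0.0827). The same held without the second untreated array (0.0564), with all clusters tested (0.0689) and without the 3 arrays that deviated together. Hells lost its call without the first 24 h array (0.055) or the second (0.0523), and Dnmt1 with a trended prior (0.0746). The calls of 48 h against untreated rested on single arrays too: without the first 48 h array Dnmt1 had an adjusted p of 0.0600 and Uhrf1 of 0.0673, and without the second Uhrf1 had 0.112 and Hells 0.0877 (limma). Uhrf1 at 48 h also missed the threshold without the second untreated array (0.0548) and without the 3 arrays that deviated together (0.0610). The 96 h calls of the 3 genes held without any single array, with changes of -5.31 to -4.88 for Uhrf1, -3.05 to -2.90 for Hells and -2.21 to -2.16 for Dnmt1.

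**Figure D3:**
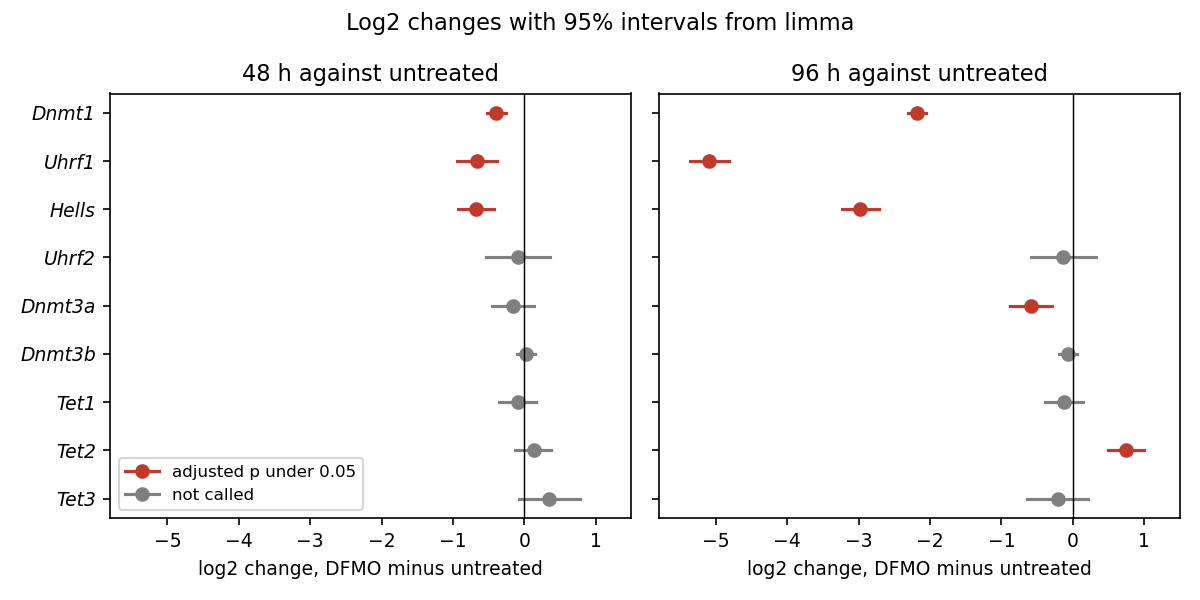
Log2 change, DFMO minus untreated, with 95% intervals from limma for the 9 genes at 48 h (left) and 96 h (right), red where the adjusted p is under 0.05. At 48 h the called genes are Dnmt1, Uhrf1 and Hells, and at 96 h Dnmt3a (-0.59) and Tet2 (0.75) join them.

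On these probes Uhrf1 fell further than Dnmt1, whose recruitment it serves. The per-array difference of their log2 values was -2.31 and -2.76 on the 96 h arrays, against 0.31, 0.42 and 0.41 on the untreated arrays. Only the shift of this difference is read here, since its size on 1 array depends on the probes. Whether the probes of both genes respond alike was not tested. The shift was -2.92, with no overlap of the groups (exact two-sided permutation test, p = 0.1, the smallest that 2 arrays against 3 allow). Uhrf1 also parted from its paralogue Uhrf2, with a difference of -1.71 ± 0.09 (SD, n = 2) at 96 h, against 3.26 ± 0.31 (SD, n = 3) untreated, a shift of -4.96 (exact permutation p = 0.1, the smallest possible). With Uhrf2 at -0.13, this shift mostly restates the change of Uhrf1.

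No change was called for Uhrf2 at any time. Its log2 level was 6.36, 6.24 and 6.86 untreated, 6.37 and 6.57 at 12 h, 6.35, 6.23 and 6.69 after 24 h, 6.55 and 6.25 at 48 h, and 6.51 and 6.20 at 96 h. The groups overlapped throughout, and the 3 arrays that deviated together were the highest of their groups. The change at 96 h was -0.13 with a 95% interval of -0.58 to 0.32 (limma adjusted p = 0.774), and without those 3 arrays it was 0.06.

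Of the de novo enzymes, Dnmt3a was lower at 96 h and Dnmt3b was not called. Dnmt3a measured 5.79, 5.85 and 5.63 untreated, 5.92 and 5.75 at 12 h, 5.76, 5.91 and 5.46 after 24 h, 5.71 and 5.48 at 48 h, and 5.17 on both 96 h arrays (log2 level). The 96 h arrays were below every other array, whereas the 48 h arrays overlapped with the untreated ones. The change was -0.16 ± 0.13 at 48 h (limma adjusted p = 0.543) and -0.59 ± 0.13 at 96 h, to 66.7% of the untreated level (limma adjusted p = 0.00930). Leaving out either 96 h array moved the 96 h p past the threshold, to 0.0593 without the first and 0.0561 without the second, with changes of -0.58 and -0.59. The step from 48 to 96 h was -0.42 ± 0.14 and was not called (limma adjusted p = 0.111).

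Dnmt3b stayed within 3.98 to 4.16 on all 12 arrays, near the leukocyte markers. It measured 3.98 and 4.01 at 96 h, against 4.06, 4.07 and 4.05 untreated, and these groups did not overlap. The change of -0.07 had a 95% interval of -0.19 to 0.06 (limma adjusted p = 0.536). Near background, a level this low limits what a change could show. The difference of Dnmt3b and Dnmt3a was -1.18 ± 0.02 (SD, n = 2) at 96 h, against -1.69 ± 0.10 (SD, n = 3) untreated, a shift of 0.52 that, with Dnmt3b near background, restates the change of Dnmt3a.

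Among the dioxygenases, Tet2 rose at 96 h. It measured 4.95, 4.65 and 4.62 untreated, 4.75 and 4.63 at 12 h, 4.71, 4.51 and 4.80 after 24 h, 4.85 and 4.89 at 48 h, and 5.55 and 5.42 at 96 h (log2 level). The 96 h arrays lay above all others, and the 48 h arrays lay within the untreated range. The change was 0.13 ± 0.11 at 48 h (limma adjusted p = 0.595) and 0.75 ± 0.11 at 96 h (1.68-fold, limma adjusted p = 0.00114). It held without any single array, at 0.68 to 0.85, with a largest limma adjusted p of 0.0157. In size it ranked 982nd among rises. The untreated mean of Tet2 was 4.74, close to the 4.65 of Uhrf1 at 96 h. Levels this low limit what the size of a rise could show. The step from 48 to 96 h was 0.62 ± 0.12 (limma adjusted p = 0.0145, where 4.35% of all genes were higher), but the adjusted p was 0.0949, 0.0629 and 0.0989 without the first 48 h, the second 48 h and the first 96 h array.

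Tet1 and Tet3 were not called at any time. Tet1 measured 4.34 and 4.47 at 96 h, against 4.70, 4.58 and 4.30 untreated, a change of -0.12 with a 95% interval of -0.39 to 0.15 (limma adjusted p = 0.621). Its other 2 clusters gave -0.25 and -0.19, neither of them called. The difference of Tet1 and Tet2 was -1.08 ± 0.19 (SD, n = 2) at 96 h, against -0.22 ± 0.13 (SD, n = 3) untreated, a shift of -0.86 (exact permutation p = 0.1, the smallest possible). With Tet1 at -0.12, this shift mostly restates the change of Tet2. Tet3 measured 5.47, 5.50 and 5.20 untreated, 5.37 and 5.14 at 12 h, 5.74, 5.07 and 5.27 after 24 h, 5.95 and 5.55 at 48 h, and 5.17 and 5.19 at 96 h. Its 48 h arrays were above all untreated arrays and its 96 h arrays below them. Neither change was called, at 0.35 (95% interval -0.08 to 0.78, limma adjusted p = 0.349) and -0.21 (-0.64 to 0.22, 0.566). The replicates spread widely, and its second cluster gave 0.14 at 48 h and 0.00 at 96 h.

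Factors that work with the methyltransferases fell in part. Of 17 measured partner genes (of 18 listed), 10 were lower and 2 higher at 96 h, with a median change of -0.50, and 5 were lower and 1 higher at 48 h, with a median of -0.19. Over all genes 10.1% were lower and 11.8% higher at 96 h, and 3.17% and 2.65% at 48 h, and these shares serve for each list below. Without either 48 h array, 2 partner genes were called at 48 h, both lower. Lig1, the ligase that joins Okazaki fragments and is known to be bound by UHRF1, measured 5.60 and 5.21 at 96 h, against 8.90, 9.02 and 8.92 untreated (change -3.54 ± 0.16, limma adjusted p = 4.13e-07). Pcna, the sliding clamp that binds DNMT1, measured 8.44 and 8.33 at 96 h, against 10.90, 10.97 and 11.05 untreated (-2.58 ± 0.10, limma adjusted p = 1.82e-07). Both belong to the S phase list as well. Suv39h2, a histone H3 lysine 9 methyltransferase, changed by -1.98 ± 0.11, and Cbx5, which encodes the heterochromatin protein HP1α, by -1.18 ± 0.07. Cdca7, the partner of HELLS, changed by 0.22 at 48 h without a call and by -1.41 at 96 h. Usp7, a deubiquitinase of DNMT1 and UHRF1, changed by -0.40 at 96 h, and the risers were Usp11 (0.36) and Nsd1 (0.24). Both risers were near the leukocyte markers, with mean log2 levels of 3.79 and 4.05 untreated and 4.15 and 4.29 at 96 h. Levels this low limit what a change could show. Cdca7, Usp7, Usp11 and Nsd1 were named after their values were seen.

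Genes of DNA replication were lower at the same times as the maintenance genes. All 33 measured S phase genes were lower at 96 h (median -2.95) and 21 at 48 h (median -0.82), and 0 were called at 12 or 24 h. Without the first or the second 48 h array the count at 48 h was 12 or 7. The per-array median of this list was -2.95 and -2.96 at 96 h and -0.63 and -0.75 at 48 h, relative to the untreated mean. Of 24 mitotic genes all were lower at 96 h (median -2.92) and 16 at 48 h (median -0.87), or 10 without the first 48 h array. Thus Uhrf1, at -5.10, lay within the range of the S phase list at 96 h (-5.78 to -1.28), as did Hells and Dnmt1. The sort was for G1, and the share of cycling cells among the sorted ones was not measured, so its part in these changes was not tested.

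**Figure D4:**
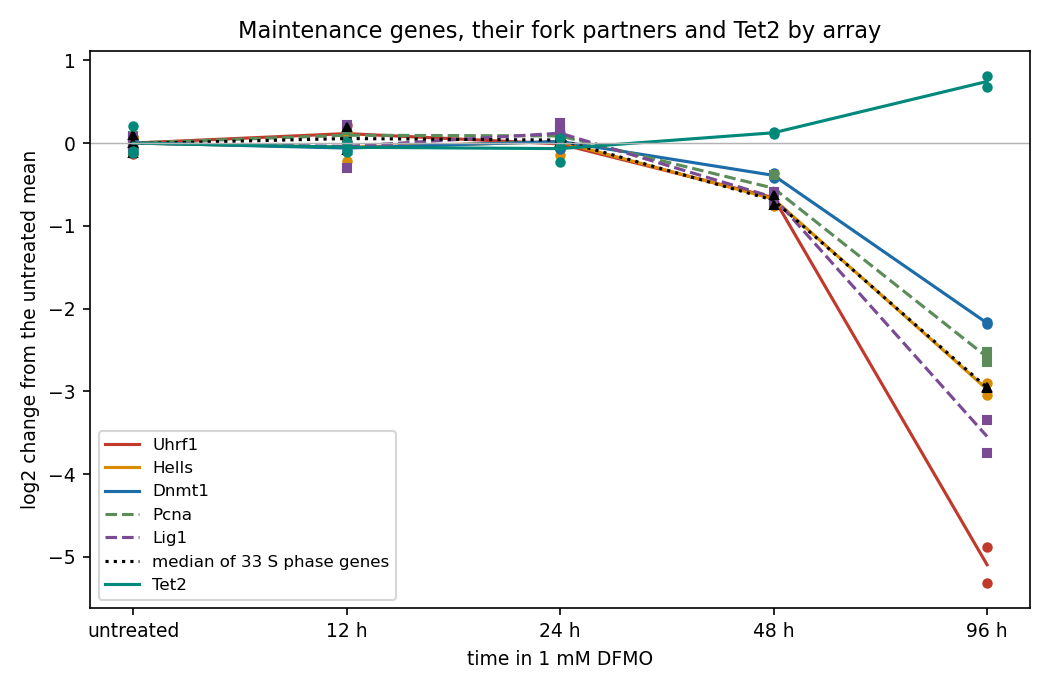
Log2 change from the untreated mean on each array (points) and its group mean (lines), by hours in 1 mM DFMO, for 3 maintenance genes, Pcna, Lig1, Tet2 and the median of 33 S phase genes. All except Tet2 lie below 0 at 48 h and 96 h, and Uhrf1 is the lowest at 96 h.

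For each called gene, the most similar genes over the 12 arrays were found by Pearson's r among all genes outside the 9. The 9 themselves were thus not candidates. The r values describe arrays that share their group means. Uhrf1 was closest to Mcm6 (r = 0.998), Mcm2 (0.998) and Mcm5 (0.996), which encode subunits of the replicative helicase. Dnmt1 was closest to Mcm6, Mcm5 and Anln (0.996 each), the last encoding anillin of the cytokinetic ring. Hells was closest to Dtl (0.999), Nuf2 (0.997) and Bub1 (0.996), an adaptor for degradation of CDT1 and components of the kinetochore and the spindle checkpoint. Over the 10 arrays without 96 h these r values were 0.89 to 0.98. Dnmt3a was closest to Fads1 (0.956), Lzts3 (0.952) and Ptpn11 (0.950), and Tet2 to Trp53inp1 (0.968), Arnt (0.966) and Dzip1 (0.962). Without 96 h the values for Tet2 were 0.77 to 0.83. Trp53inp1, a p53 target, changed by 3.29 ± 0.17 at 96 h (limma adjusted p = 1.06e-06).

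Readers of methylated CpG were tested next. Of 8 measured (of 10), 3 were higher and 1 lower at 96 h (median 0.19) and 0 were called at 48 h. Over all genes 11.8% were higher and 10.1% lower at 96 h. The count at 48 h was 1 with arrays centred on their medians or only the groups compared. It was 2 with array weights or replicate numbers in the fit. The count at 96 h was 2 without either 96 h array or the third untreated array. Mbd1, a repressor that binds methylated CpGs, measured 7.59 and 7.39 at 96 h, against 6.51, 6.37 and 6.55 untreated (1.01 ± 0.10, limma adjusted p = 7.39e-05). Zbtb4, a zinc-finger reader, changed by 0.66 ± 0.08 (limma adjusted p = 0.000306). The calls for Zbtb38 (0.40, adjusted p = 0.0297) and the glycosylase gene Mbd4 (-0.41, 0.0224) were lost in limma without either 96 h array or the third untreated array, and that for Zbtb38 also without the first untreated array, with a trended prior (0.0538) and with only the groups compared (0.0757).

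A further list held genes that act after or beside the TET enzymes. Of 19 measured (of 21), 6 were lower and 2 higher at 96 h (median -0.05), and 4 were lower and 0 higher at 48 h. Over all genes 10.1% were lower and 11.8% higher at 96 h and 5.82% were called at 48 h, and the 48 h count of this list was 2 without either 48 h array or the second untreated array. Idh2, whose product supplies 2-oxoglutarate, the co-substrate of TET enzymes, measured 7.0 and 6.99 at 96 h, against 9.18, 9.10 and 9.34 untreated (-2.21 ± 0.08, limma adjusted p = 1.68e-07). Its cytosolic counterpart Idh1 changed by -1.12 at 48 h and -1.10 at 96 h. Parp1, a sensor of strand breaks, changed by -1.57 ± 0.13 at 96 h and Apex1, the abasic-site endonuclease, by -0.97 ± 0.09. The higher genes, named after their values were seen, were Ogt (0.58), a glycosyltransferase that binds TET proteins, and the cytidine deaminase gene Apobec1 (1.66).

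Genes of the methyl donor S-adenosylmethionine and of folate metabolism went in both directions. Of 10 measured (of 14), 2 were higher and 3 lower at 96 h (median 0.01), and 1 was lower at 48 h, beside 21.9% and 5.82% of all genes called. Without the first 96 h array 3 were called at 96 h, and without the first 48 h array 0 at 48 h. Shmt2, the mitochondrial serine hydroxymethyltransferase, changed by 0.00 at 48 h and by -1.42 ± 0.14 at 96 h (limma adjusted p = 8.02e-05). Mtrr, the reductase that keeps methionine synthase active, changed by 1.07 ± 0.18 (limma adjusted p = 0.00195). Relatives of S-adenosylhomocysteine hydrolase moved oppositely, Ahcyl1 by -1.13 ± 0.12 and Ahcyl2 by 0.44 ± 0.09, the last not called without the first 96 h array (limma adjusted p = 0.0687).

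Genes known to be silenced by promoter methylation outside the germ line were near background in 96 h and in untreated cells. Of 27 measured (of 28), 0 were called at 96 h (median -0.01, range -0.24 to 0.10), and 2 were lower at 48 h, beside 5.82% of all genes called at that time. The 48 h count was 0 without the first 48 h array or with only the groups compared, and 1 under several other settings, including arrays centred on their medians. Without the first or the third untreated array, 1 was called lower at 96 h. Their means ran from 3.39 to 4.34 log2 units at 96 h, against 3.39 to 4.44 untreated, around the leukocyte markers. Sycp3, of the meiotic chromosome axis, measured 4.38 and 4.31 at 96 h, against 4.43, 4.45 and 4.46 untreated, and 4.03 and 4.19 at 48 h (48 h change -0.33 ± 0.06, limma adjusted p = 0.0146). Hormad1, of the same axis, was lower at 48 h (-0.25 ± 0.06, limma adjusted p = 0.0383) and changed by -0.02 at 96 h. Ddx4, the germ-cell helicase, changed by 0.08 and Tuba3b, a testis tubulin with a near-identical copy, by 0.02. DNA methylation itself was not measured.

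Of 22 measured imprinted genes (of 27), whose allelic expression depends on inherited methylation, 4 were higher at 96 h and 0 lower (median 0.02), and 0 were called at 48 h. Over all genes 21.9% were called at 96 h and 11.8% were higher, so the count of this list is not set apart from the rest. Igf2r measured 7.90 and 8.10 at 96 h, against 5.63, 6.0 and 6.07 untreated (2.10 ± 0.23, limma adjusted p = 0.000170). Airn, a noncoding RNA antisense to Igf2r, measured 5.83 and 7.22 at 96 h, against 4.67, 4.68 and 4.32 untreated (1.97 ± 0.37, limma adjusted p = 0.00380), and its change ran from 1.27 to 2.66 with 1 array left out. The pair overlap on the genome, so their signals may not be separate. Impact changed by 1.53 ± 0.14 and Plagl1, a zinc-finger gene, by 0.55 ± 0.14, the last not called without the third untreated array (limma adjusted p = 0.0510) or the first 96 h array (0.150). Alleles cannot be told apart in these data.

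**Figure D5:**
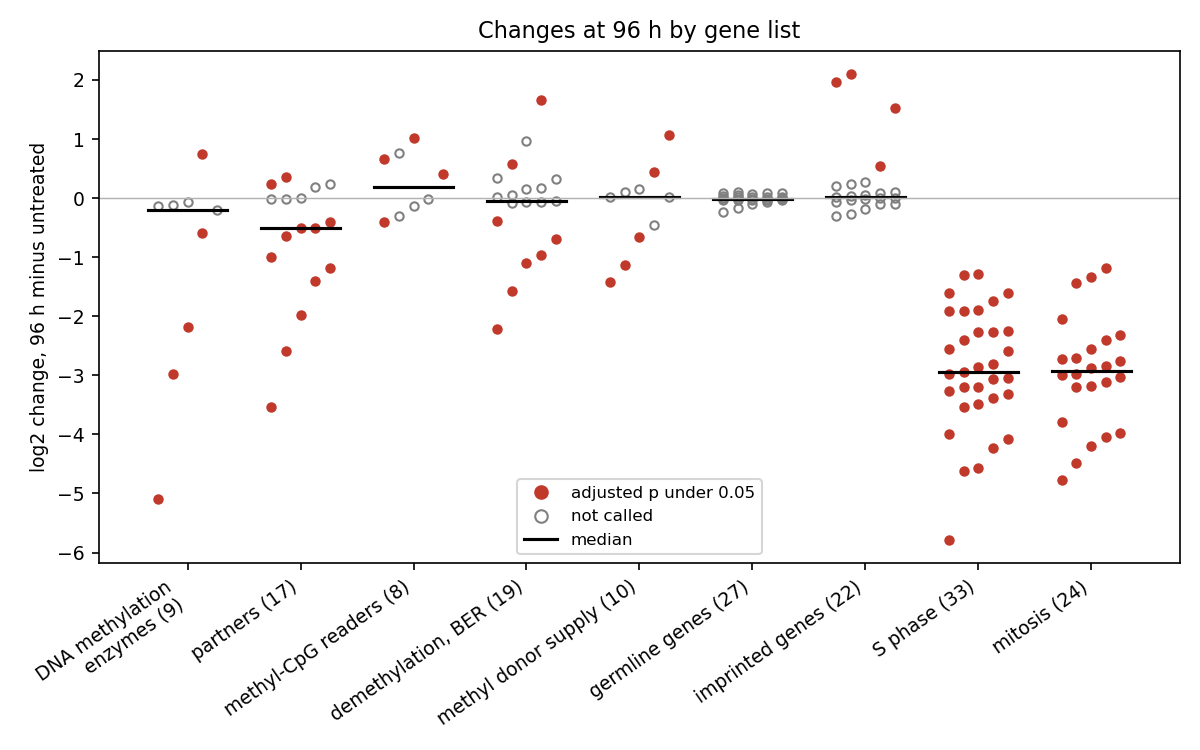
Log2 change at 96 h, DFMO minus untreated, of every measured gene in each list (points, filled where the limma adjusted p is under 0.05) with the list's median (bar) and the number of genes in brackets. All S phase and mitotic genes lie below -1, germline genes stay within -0.24 to 0.10, and 4 of 9 methylation enzymes are called lower.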

How the data were processed

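The authors deposited 1 table of log2 values per transcript cluster for 12 arrays. RMA and Partek are named per the submitters' processing notes, without versions. RMA normalises by quantiles, which would hide a shift common to all transcripts. The lowest deposited log2 value was 2.53 and the highest 13.18, and array medians lay between 4.13 and 4.20. Depth does not apply to arrays, whose number limits the precision.

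Of 35399 clusters, 21789 carried 1 gene symbol in the platform annotation, 1621 several and 11989 none. The highest-mean cluster stood for each of 999 genes with several clusters, which left 19938 genes. All 12 arrays were used, and the sources used here name no genome build for them.

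One mean per group was fitted with limma 3.58.1 in R 4.3.3, with two-sided p-values and Benjamini-Hochberg adjustment over all genes of a comparison. The procedure was tested on simulated data. Figures were drawn with matplotlib 3.10.9. The labels call the arrays biological replicates without naming separate cultures, so p-values measure the spread between these arrays.

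The 9 genes, the lists and the promoter words were chosen with earlier results of these data known. Named genes are the 9 and the 4 genes of each list with the smallest F test p (passing over genes already named). To these were added, for each of the 9 called at 96 h, the 3 most correlated genes outside the 9. Marker genes, Cdca7, Usp7, Usp11, Nsd1, Ogt and Apobec1 are named outside this rule, after their values were seen. For 24 h against untreated, arrays with the same replicate number deviated together (r of 0.153, 0.287 and 0.581). Unlike-numbered pairs of these groups had r of -0.423 to 0.235, which overlaps with that range. The labels do not say what the numbers mark. The main fit used no pairing, and the numbers entered only as a replicate block in an alternative fit. Other comparisons share 2 numbers only. Among them, same-numbered arrays of 24 h and 48 h also deviated together (r of 0.35 and 0.419). In a group of 2 arrays the deviations mirror each other, so the pairs with these numbers exchanged had r of -0.35 and -0.419. Over all groups, same-numbered pairs had r of -0.255 to 0.581.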

Additional observations from a re-analysis of the deposited data

Results flagged for a closer look

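Levels at successive times in DFMO differed by the test of the step itself for 4 of the 9 genes. Over all genes, 1.67% were called from 24 to 48 h and 8.64% from 48 to 96 h. The groups of each called step did not overlap. Neither did those of Tet2 from 24 to 48 h or of Dnmt3a, Dnmt3b and Tet3 from 48 to 96 h, which were not called. The share of all genes without overlap was not counted. From 24 to 48 h the limma log2 step was -0.41 for Dnmt1, -0.65 for Uhrf1 and -0.69 for Hells. From 48 to 96 h it was -1.78 for Dnmt1, -4.43 for Uhrf1, -2.30 for Hells and 0.62 for Tet2. The steps from 24 to 48 h were not called for any of the 9 genes without either 48 h array or with only the groups compared, and that of Tet2 was not called without either 48 h array or the first 96 h array. From 24 to 48 h, Uhrf1 also lost its call whichever 24 h array was left out, and Hells without the first or the second of them. These time points have 2 or 3 arrays each, too few to test single arrays as outliers.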

How the results depend on the processing

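Direction and calls were recomputed with arrays centred on their medians, array weights, a trended prior, dim genes left out, all clusters tested, clusters averaged, only the groups compared, a replicate block and each of the 12 arrays left out, plus one setting chosen after seeing the data, without the third untreated, the second 12 h and the third 24 h array. Leaving out 1 array, the number of the 9 genes called was 1 to 3 at 48 h, 4 to 5 at 96 h, 0 to 3 from 24 to 48 h, 3 to 5 from 48 to 96 h and 3 to 5 by the F test (3 without the first 96 h array). Fitted on only the groups compared, 0 of the 9 were called from 24 to 48 h, where calls over all genes dropped to 61, from 333. The shift between Uhrf1 and Dnmt1 ran from -3.15 to -2.69. With the replicate block, 3 genes were called at 48 h, 5 at 96 h, 2 from 24 to 48 h (Uhrf1 lost, adjusted p = 0.0703) and 5 from 48 to 96 h, and 0 at 24 h, where it changed no call. Zbtb38 (adjusted p = 0.0625) and Mbd4 (0.0533) lost their 96 h calls under the block. Changes that turned sign were never called: Uhrf2 at 48 h (0.07 with the block, 0.10 without the 3 arrays, -0.24 to 0.10 with 1 array left out, highest without the third untreated one) and at 96 h (0.03 with the block, 0.06 without the 3 arrays, -0.28 to 0.06 with 1 array left out, highest without the third untreated one), Dnmt3b at 48 h (0.00 with the block), Hormad1 at 96 h (0.03 with clusters averaged or without the second 96 h array, 0.01 without the first untreated array) and Tuba3b at 96 h (-0.01 with array weights and without the 3 arrays, -0.08 to 0.11 with 1 array left out). The cause was not tested. Counts over all genes at 48 h were 2194 with array weights and 375 to 1265 with 1 array left out, and at 24 h 11 with all clusters tested, against 0. Low signal limits what Dnmt3b, Tet1, Usp11, Nsd1 and the germline genes could show. It also limits the rises of Tet2, Zbtb4, Apobec1 and Airn, whose untreated means were 4.74, 4.53, 4.56 and 4.56 log2 units.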
